A study of Drosophila melanogaster with 8 samples.

Results

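RNA recovered with the tagged RNA-binding protein Sex-lethal (SXL) was set against RNA recovered with tagged green fluorescent protein (GFP), the background of the precipitation. The cells were SL2, a male embryonic line of Drosophila melanogaster related to blood cells. The SXL IP and GFP IP groups were both transfected, both carried a FLAG-3xHA tag on the expressed protein, and both were precipitated with the anti-FLAG M2 antibody. These 4 libraries, 2 per group, were taken by their group labels from the 8 samples of the series, of which 7 are IP libraries and 1 is an input that was not analysed here. The labels do not give the promoter of the constructs, whether the transfection was stable or transient, or whether libraries of a group go back to separate cultures. The p-values below thus speak of the spread between the libraries, which may be technical.

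SXL is the switch protein of fly sex determination. It is made in females, where it binds U-rich stretches of RNA, directs the splicing of its own and of the transformer transcript, and blocks the translation of msl-2 mRNA, whose protein the male dosage compensation complex cannot do without. In RNA immunoprecipitation the RNA that comes down with a protein is sequenced. A higher value thus means more RNA recovered beside the other RNAs of that library, and is not a measure of RNA in the cell. Whether the RNA levels of the cells themselves differed between the groups was not tested.

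The 4 libraries differed in depth. Over the 956 genes with counts per library, the SXL libraries held 3266209 and 3604413 reads and the GFP libraries 20859 and 27467 reads. Solving for the authors' size factors from the deposited counts and means gave 3.33 and 3.59 for the SXL libraries, against 0.0886 and 0.120 for the GFP libraries. Normalized counts here are counts divided by these factors, and libraries carry the numbers 2 and 3 of the deposited columns. One read was worth 0.300 and 0.278 normalized counts in the SXL libraries, against 11.3 and 8.30 in the GFP libraries, so few GFP reads lie behind many of the ratios below. Of the blood cell markers on a list written for the check of the cell type, srp, a GATA factor of blood cell progenitors, could be named and tested. With SXL it had 1811 and 1820 normalized counts, with GFP 1004 and 905. Of the same list gcm2 could be named too, but it had a mean normalized count of 0 and was not tested. The other markers of that list carried no name here and were not used.

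Both directions were common. Of 17559 genes in the authors' deposited table, 7170 had an adjusted p, and 2110 of them (29.4%) passed a threshold of 0.05. There 1175 genes (16.4% of the tested genes) were higher with SXL and 935 (13.0%) were lower. The genes that rose did so by a median log2 fold change of 1.53, and those that fell by a median of -1.68. Large deposited changes lay more often on the lower side. Beyond a log2 change of 3 in the authors' deposited table were 131 of the lower genes, against 49 of the higher genes. Beyond 4 were 55 against 11. For Vmat and CR45139, with few GFP reads, the deposited values (3.17 and 3.59) lay below those of edgeR from the counts (4.38 and 4.90). Lower genes had no counts for such a check, so the sizes of rises and falls cannot be compared here. The median over all tested genes was 0.09.

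**Figure D1:**
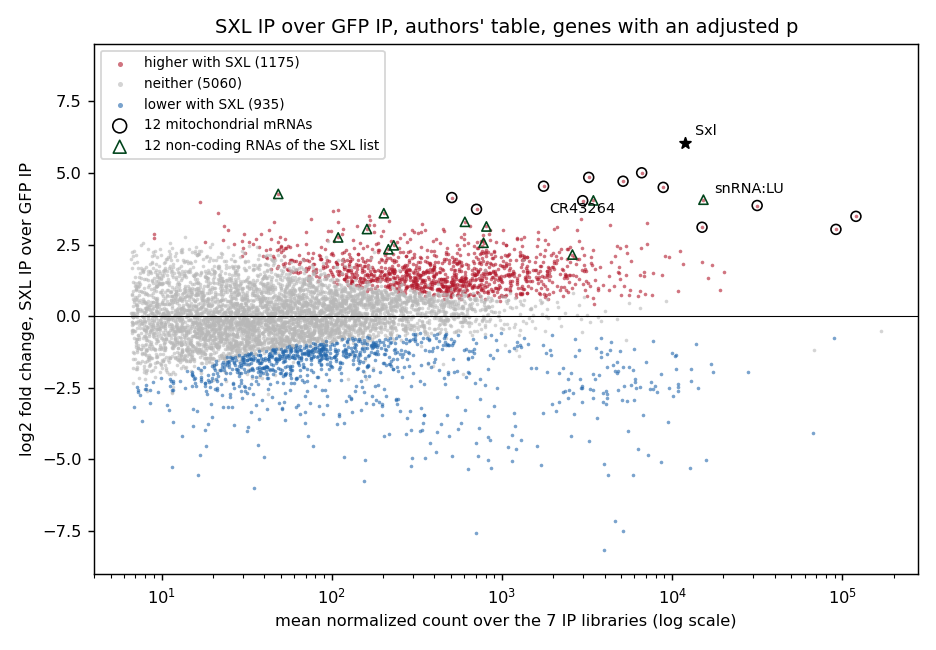
Log2 fold change of SXL IP over GFP IP (y axis) against the mean normalized count over 7 IP libraries (x axis, log scale) for the 7170 tested genes of the authors' deposited table. Red points are the 1175 genes higher with SXL, grey the 5060 that did not pass and blue the 935 lower; the star is Sxl, circles are the 12 mitochondrial mRNAs and triangles the 12 non-coding RNAs of the SXL list, and lower genes of high count form a cloud between about -2 and -3.

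Because the table gives 1 mean over 7 libraries and 2 fold changes per gene, each group's mean level could be estimated for every gene, though with no spread. For 675 listed genes with at least 10 GFP reads, the estimate over the measured mean had a median of 1.00 in the SXL IP and 1.03 in the GFP IP, with 90% of genes between 1.00 and 1.10 for GFP. All 675 genes had been listed for enrichment, so lower genes are not covered by that check. By this estimate the genes higher with SXL made up 48.9% of the normalized counts of the SXL IP and 9.65% of those of the GFP IP. The genes lower with SXL made up 20.0% of the SXL IP and 64.5% of the GFP IP. A small group carried most of this: the 130 lower genes whose mean normalized count reached 1000 held 17.1% of the SXL IP and 57.3% of the GFP IP.

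The estimated totals were unequal, 2463400 normalized counts per SXL library against 3462440 per GFP library. If both groups were set to equal totals, every log2 fold change would shift up by 0.49 and the median of tested genes would be 0.58. Then 2064 genes were higher and 521 lower, so the higher share of calls was 79.8%, against 55.7% with the authors' scaling. All 1175 higher genes kept their call under that scaling, and of the 935 lower genes 521 did and none turned higher. A shift upward keeps higher calls by construction. With fold changes centred on the median of tested genes instead, 1071 genes were higher and 1047 lower, with 1071 of the 1175 higher and all 935 lower calls kept.

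Abundance separated the 2 directions, but in a way that depends on how abundance is measured. By the mean normalized count over the 7 IP libraries, 0.452% of 442 genes under 10 and 1.34% of 2613 genes from 10 to 50 passed as higher in the authors' deposited table. This share was 6.56% of 1234 genes from 50 to 100, 26.5% of 1927 genes from 100 to 500, 55.8% of 468 genes from 500 to 1000 and 58.8% of 486 genes at 1000 and up. The lower share went 3.17%, 9.91%, 17.0%, 14.1%, 10.7% and 26.7% over the same classes. Among genes at 1000 and up the 286 higher ones had a median log2 fold change of 1.55 and the 130 lower ones -2.42 in the authors' deposited table. The standard error fell over these classes from a median of 1.03 to 0.28, so a change of the same size passed less often in rare RNAs.

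The mean over 7 libraries contains the SXL libraries themselves, and it is larger for a gene that SXL recovers. With classes of the estimated GFP level instead, the most abundant class turned over: of 289 genes at 1000 and up, 18.7% were higher and 65.4% lower, with a median log2 fold change of -1.48 in the authors' deposited table. From 500 to 1000 the shares were 33.3% higher and 27.5% lower, from 100 to 500 they were 27.7% and 19.7%, and from 50 to 100 they were 15.6% and 12.9%. Below 10 they were 4.94% and 0.506%. The GFP level is the denominator of the fold change, so this class choice leans the other way, and neither measure is independent of the values.

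**Figure D2:**
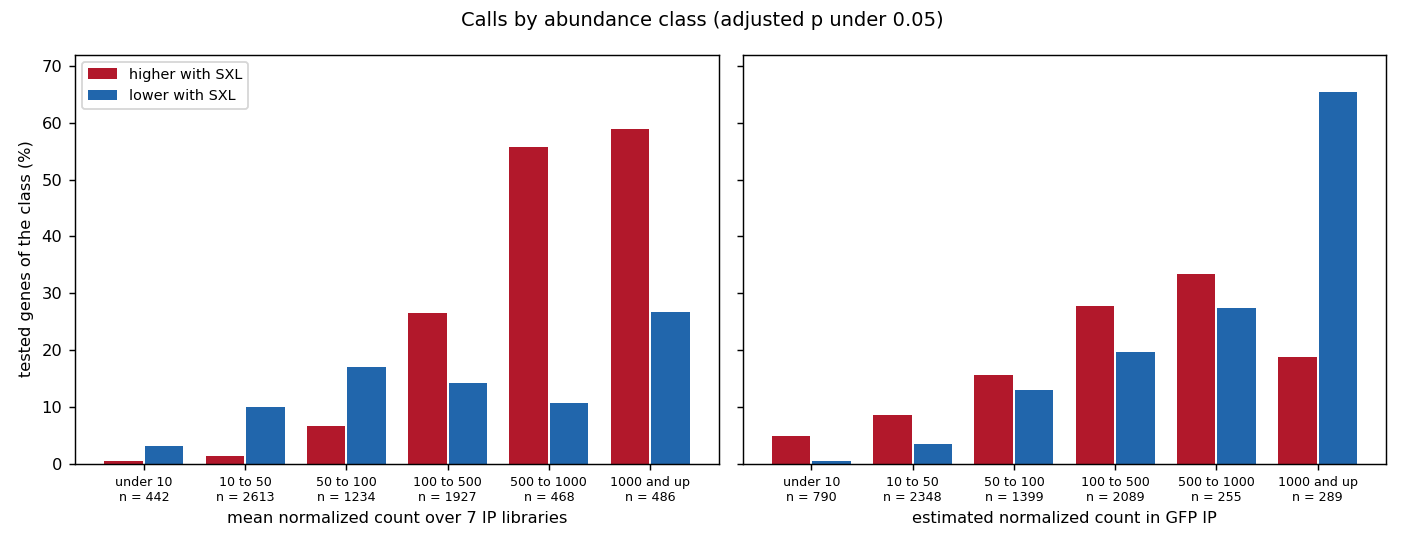
Share of tested genes called higher (red) or lower (blue) with SXL at an adjusted p under 0.05 (y axis, percent), by class of mean normalized count over 7 IP libraries (left) and of estimated normalized count in the GFP IP (right), with the number of genes under each class. In the class of 1000 and up the higher share is 58.8% on the left and 18.7% on the right.

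The RNAs that fell can hardly be described by kind. None of the 935 lower genes was among the 956 genes for which the files give a name, span or biotype, and 2 carried a name through RefSeq. These were Idgf3, a secreted chitinase-like growth factor, with a log2 fold change of -1.58 (SE 0.23), and LanA, the alpha chain of laminin in basement membranes, with -1.23 (SE 0.20) in the authors' deposited table. Their estimated levels were 282 and 2622 normalized counts in the SXL IP, against 847 and 6164 in the GFP IP. The lowest log2 fold change among genes whose mean normalized count reached 50 was that of FBgn0036714, -8.15 in the authors' deposited table. Its estimated level was 48.7 normalized counts in the SXL IP and 13863 in the GFP IP. FBgn0030008 followed at -7.55. In all, 43 unlisted tested genes had a RefSeq name, of which 1 rose, 2 fell and the rest did not pass.

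On the higher side 752 of the 1175 genes had counts per library and a name, and 423 did not. Those without counts had log2 fold changes from 0.42 to 3.97 with a median of 1.23 in the authors' deposited table. Of those whose mean normalized count reached 50, FBgn0086039 was highest at 3.67 (SE 1.21). The named ones come from 2 lists that the authors deposited, of genes that exceeded a log2 fold change of 2 at an adjusted p of less than 0.001 against GFP: an SXL list of 199 genes (2.78% of the tested genes) and a list of 947 genes for the paralogue SSX. Of the 956 genes in either list, 752 (78.7%) passed as higher with SXL and none as lower. The SSX comparison used the same 2 GFP libraries, so an upward value with SXL is built into how 947 of these genes were chosen, and all that follows on function, length and biotype describes these genes.

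Within the SXL list the SXL libraries were close to each other. The ratio of library 3 to library 2 had a median of 1.09, and 194 of 199 genes had SXL values within 1.5-fold of each other. The GFP side was thin, with a median of 22 GFP reads per gene, 153 genes with at least 10 reads, 10 genes with 1 to 3 and 2 with 0. The list rule had the genes just inside at a log2 fold change of 2.00052 and just outside at 1.99589, and 149 further genes above 2 missed it by their adjusted p. All 199 genes had both SXL libraries above both GFP libraries, as did 97.2% of the 956 listed genes. That order follows from how the list was made.

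The bait's own transcript was the most enriched. Sxl (FBgn0264270, X chromosome, BDGP6 positions 7074550-7098056) had 33236 and 34550 normalized counts in the SXL libraries, against 463 and 473 in the GFP libraries. Both SXL values stood far above both GFP values. The log2 fold change was 6.06 in the authors' deposited table. Sxl made up an estimated 1.37% of the SXL IP and 0.0146% of the GFP IP. Reads of the expressed construct and of the cell's own gene cannot be told apart in these counts, so this value checks the labels and does not measure binding.

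Known targets of SXL had lower fold changes than the bait, whose value does not measure binding, and Phf7 did not pass. The transcript of msl-2 (chromosome arm 2L, positions 3462218-3466112) had 823 and 962 normalized counts with SXL and 147 and 116 with GFP. The groups did not overlap, as in 97.2% of the 956 listed genes. The log2 fold change was 2.69 (SE 0.37, adjusted p = 8.7e-12) in the authors' deposited table. N, which encodes the Notch receptor and whose mRNA SXL holds down in females, had 1052 and 1069 normalized counts with SXL against 655 and 407 with GFP. Its log2 fold change was 1.00 (SE 0.28) in the authors' deposited table, the same sign as with every scaling but those over the listed genes alone, where it was below 0. Phf7, which encodes a chromatin reader of male germ cells, had 41.7 and 46.2 normalized counts with SXL against 11.3 and 16.6 with GFP, from 3 GFP reads. The ratio was 3.07 with a 95% counting interval of 1.04 to 14.97. Its log2 fold change of 1.30 did not pass in the authors' deposited table (adjusted p = 0.17). Of 7 target names written, Sxl included, 4 could be named, and 3 of them rose, beside 78.7% of the 956 listed genes. All 4 are among the listed genes, so the count does not set known targets apart.

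The mitochondrial mRNAs had the highest median of the classes looked at. They encode membrane proteins of oxidative phosphorylation, and are made and kept inside mitochondria. All 12 that could be named rose in the authors' deposited table, and all 12 are in the SXL list. All 12 also met the list rule with SSX, so being listed is not particular to SXL. Their median log2 fold change with SXL was 4.09, against 1.55 for all listed genes and 0.09 for all tested genes. Their summed mean was 269616 normalized counts with SXL and 24259 with GFP, beside estimated totals of 2463400 and 3462440. The 12 share 1 small genome and are cut from long precursors, so they are not independent of one another.

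The size of the rise differed by complex. The 7 mRNAs of complex I, the NADH dehydrogenase, had log2 fold changes from 3.73 to 5.01 with a median of 4.54 in the authors' deposited table. The 3 of complex IV, cytochrome c oxidase, had 3.03 to 3.49, all below the complex I range. Cyt-b of complex III had 3.86 and ATPase6 of the ATP synthase 4.03 in the authors' deposited table. The order of levels ran the other way. Per kilobase of gene span, complex IV mRNAs stood between 25783 and 123780 normalized counts with SXL and between 2910 and 14680 with GFP, while complex I mRNAs stood between 2017 and 16258 with SXL and between 63.9 and 518 with GFP.

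Single mRNAs show the same picture in each library. The highest by fold change, mt:ND4 (mitochondrial genome, positions 8206-9544), had 7040 and 9159 normalized counts with SXL and 237 and 232 with GFP. The most abundant in both groups, mt:CoIII, had 97939 and 97386 with SXL and 13260 and 9905 with GFP. It was followed by mt:CoI, with 71223 and 93694 with SXL and 7945 and 6202 with GFP. For mt:ND2 the GFP libraries themselves differed, with 147 and 49.8 against 2240 and 2654 with SXL. The widest spread within SXL was in mt:ND6, with 616 and 1501, against 33.9 and 33.2 with GFP from 7 GFP reads. In no case did an SXL library fall into the GFP range, which also held for 97.2% of the 956 listed genes. For 11 of the 12 the value was higher in SXL library 3, as it was for 158 of the 199 genes of the SXL list. The exception among the 12 was mt:CoIII with a ratio of 0.994.

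Some of these genes abut or overlap on the mitochondrial genome. In RefSeq the span of mt:ATPase6 overlaps those of ATP8 and COX3, mt:CoIII overlaps ATP6, and mt:ND4L overlaps ND4. Whether counting used the strand is not given in the sources used here. Reads at such borders may therefore count for either neighbour. The 2 mitochondrial ribosomal RNAs could not be named here, and rRNA had been depleted. Nuclear genes of the mitochondrion did not share the size of the rise. The 17 listed nuclear genes with the GO term mitochondrion had a median log2 fold change of 1.35, and 11 of them rose in the authors' deposited table. No gene of the nuclear respiratory chain list, of 28 names, was among the genes named here.

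**Figure D3:**
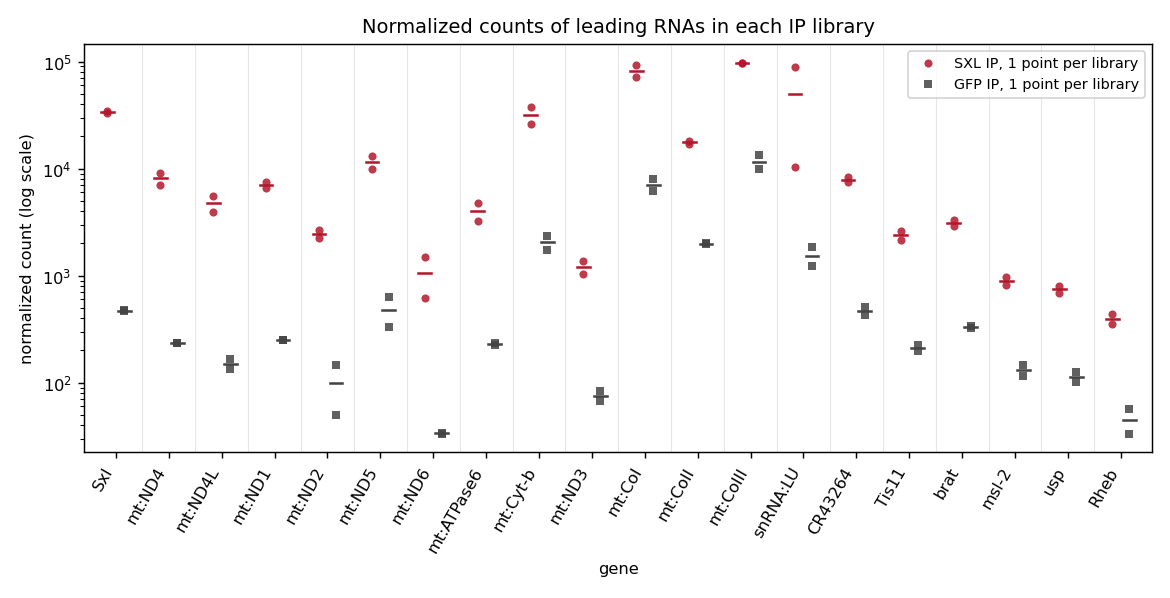
Normalized counts (y axis, log scale) of 20 leading RNAs in each library, with SXL IP libraries as red circles left of the GFP IP libraries as grey squares and the group mean as a bar. In all 20 both SXL libraries lie above both GFP libraries, as in 97.2% of the 956 listed genes. The SXL libraries are far apart for snRNA:LU (89892 and 10432).

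Listed non-coding RNAs of all spans are described here, with a median span of 2113 bp for those of biotype lincRNA. Of 33 listed genes with the annotation biotype lincRNA, 22 rose in the authors' deposited table (66.7%) and 12 are in the SXL list (36.4%), against 730 of 920 protein-coding genes that rose (79.3%), of which 187 (20.3%) are in the list. The median log2 fold change was 1.96 for lincRNA and 1.54 for protein-coding genes in the authors' deposited table. The lincRNA genes had a median of 5 GFP reads and the protein-coding genes 22. The part of these reads in the share that rose was not tested. Where the mean reached 50 normalized counts, 72.4% of 29 lincRNA genes and 82.4% of 882 protein-coding genes rose. The 3 pseudogenes had log2 fold changes of 1.10 to 1.71 and none passed. The biotype hides several kinds of RNA: RefSeq gives snRNA:LU as a small nuclear RNA, CR43701 as ncRNA and CR45139 and CR44029 as antisense RNA.

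Among the lincRNA genes the shortest stood highest. Of 6 with a span under 400 bp, 5 are in the SXL list and the median log2 fold change was 3.19 in the authors' deposited table. Of 27 longer ones 7 are in the list, and the median was 1.81. CR43264 (X chromosome, positions 5831898-5832215) had 7484 and 8339 normalized counts with SXL against 508 and 432 with GFP, a log2 fold change of 4.04 (SE 0.24, adjusted p = 7.4e-59) in the authors' deposited table. This was the steadiest of the short RNAs. It lies within the span of CG15765, which is not among the genes with counts.

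The small nuclear RNA snRNA:LU (2L, positions 3046746-3046904) had SXL libraries far apart. It had 89892 normalized counts in SXL library 2 and 10432 in SXL library 3, against 1230 and 1851 in the GFP libraries. The SXL values differed by more than the SXL and GFP values nearest to each other. Its deposited log2 fold change was 4.07 (SE 1.00, adjusted p = 0.00037) in the authors' deposited table, below the 5.02 that edgeR gave from the counts. The edgeR value was 2.75 without SXL library 2 and 5.86 without SXL library 3. CR43701 (3L, positions 1488739-1488831), at 93 bp the shortest gene of the list, showed the same order, with 199 and 53.1 normalized counts with SXL and 0 reads in both GFP libraries. It was at least 8.80-fold higher with SXL than a floor of 3 reads summed over both GFP libraries. The bound was 3.70-fold without SXL library 2 and 13.9-fold without SXL library 3. These 2 genes and mt:ND6 had the widest SXL spread in the list.

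2 further short RNAs were less enriched. CR34335 (X, positions 3545862-3546110) had 4130 and 6511 normalized counts with SXL and 1208 and 1079 with GFP, with a log2 fold change of 2.15 in the authors' deposited table. CR40469 (X, positions 122493-122706) had 536 and 426 with SXL and 56.4 and 116 with GFP, with a log2 fold change of 2.34 in the authors' deposited table. The groups did not overlap for either, nor for 97.2% of the 956 listed genes.

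The antisense RNAs rest on few GFP reads. CR45139 (2R, positions 3943429-3949757), which overlaps uex, had 148 and 141 normalized counts with SXL against 0 and 8.30 with GFP, from 1 GFP read. Its ratio of SXL to GFP was 30.2 with a 95% counting interval of 5.41 to 1194. CR44029 (chromosome 4, positions 879374-884752), within the span of unc-13, had 384 and 431 with SXL against 45.1 and 24.9 with GFP, a log2 fold change of 3.29 in the authors' deposited table. Of the 33 lincRNA genes 14 lie within the RefSeq span of another gene, with a median of 2.36 and 7 in the SXL list, and 19 do not, with a median of 1.90 and 5 in the list. The nested ones include snRNA:LU (within FASN2), CR34335 (within DIP-alpha) and CR43701 (within stet). A nested RNA cannot be told apart from its host where counting did not use the strand, or where both lie on the same strand.

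Of the 199 genes, 9 met the list rule with SXL and not with SSX, and 4 of these are short non-coding RNAs described above: CR43701, snRNA:LU, CR40469 and CR34335. The others are CG1667, Fis1, h, VhaM9.7-b and CG32579. CG1667, which encodes the fly STING protein of innate immunity, had 268 and 261 normalized counts with SXL against 45.1 and 33.2 with GFP. Fis1, a factor of mitochondrial fission, had 229 and 175 against 56.4 and 24.9. The segmentation gene h, a transcriptional repressor, had 1063 and 1250 against 282 and 216. VhaM9.7-b, a subunit of the proton pump of acidic organelles, had 486 and 587 against 135 and 99.6. Their log2 fold changes were 2.05 to 2.65 in the authors' deposited table. The 9 genes had a median span of 1248 bp, against 6441 bp for the SXL list and 7551 bp for the 757 genes in the SSX list alone. In the authors' deposited table of SXL over SSX 7 of the 9 were higher with SXL (77.8%), as were 0.941% of the 956 listed genes and 11.5% of the 9500 tested there. The choice of the 9 leans that way, so this is a description. The exceptions were h (0.29, adjusted p = 0.18) and CG32579 (0.15, adjusted p = 0.68) in the authors' deposited table.

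Fold changes differed little by gene length beyond these classes. The annotation gives the span of the gene, introns included, and not the length of the RNA. The median log2 fold change in the authors' deposited table was 2.07 for 26 listed genes under 1 kb, 1.48 for 167 genes of 1 to 3 kb, 1.54 for 366 of 3 to 10 kb, 1.59 for 251 of 10 to 30 kb and 1.47 for 146 of 30 kb and up. Of the 26 shortest genes 7 are mitochondrial and 10 non-coding. Without the mitochondrial genes the median under 1 kb was 1.68 over 19 genes, and for those of the 26 with at least 10 GFP reads it was 3.10. In the SXL list were 13 of the 26 genes under 1 kb, and the share was between 19.2% and 20.5% in the other 4 classes.

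The share of genes that rose did differ by span, 61.5% under 1 kb, 59.3% from 1 to 3 kb, 80.9% from 3 to 10 kb, 86.5% from 10 to 30 kb and 84.9% at 30 kb and up. The median number of GFP reads ran with it, at 9, 7, 21, 39 and 32 over the same classes, and its part in the share was not tested. Among genes with at least 10 GFP reads the share was 92.3% under 1 kb, 78.0% from 1 to 3 kb, 89.5% from 3 to 10 kb, 90.9% from 10 to 30 kb and 92.5% at 30 kb and up.

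At the long end of the list stood brat, Nrg and Flo2. The transcript of brat, which encodes a translational repressor that acts with Pumilio and Nanos, spans 45943 bp and had 2900 and 3307 normalized counts with SXL against 327 and 340 with GFP. Its log2 fold change was 3.17 (SE 0.26, adjusted p = 3.4e-32) in the authors' deposited table. Nrg, a cell adhesion molecule of neurons and epithelia, had 135 and 146 against 11.3 and 8.30, from 2 GFP reads, and a ratio of 14.7 with a 95% counting interval of 4.07 to 122. Flo2, the flotillin gene and with 94571 bp the longest of the list, had 686 and 693 against 45.1 and 174.

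The rule that takes the highest gene of each class also gave Tis11 and CG42360. Tis11 (X, positions 12659415-12682554), which encodes a zinc finger protein that speeds decay of mRNAs with AU-rich elements, had 2159 and 2592 normalized counts with SXL against 226 and 199 with GFP, a log2 fold change of 3.40 in the authors' deposited table. CG42360 (2R, positions 24607267-24610847) had 84.7 and 89.3 with SXL and 0 reads in both GFP libraries, so it was at least 6.06-fold higher than the floor of 3 reads. It was the rarest gene of the list in the SXL IP. The next were Vmat, CG13358, RhoGAP93B and CG7369, all between 92.2 and 143 normalized counts in each SXL library and with at most 4 GFP reads. The GFP reads of Vmat and RhoGAP93B, and the 1 of CR45139, all lay in library 3, and that of CG13358 in library 2, so without that library no GFP read is left. Without the other GFP library edgeR gave log2 fold changes of 3.59 (Vmat), 2.91 (RhoGAP93B), 4.11 (CR45139) and 3.24 (CG13358).

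**Figure D4:**
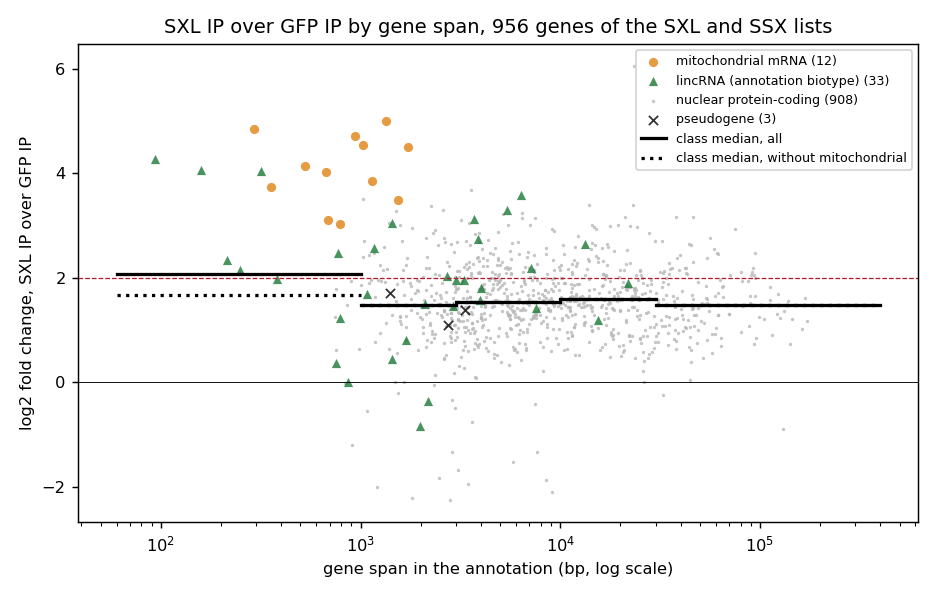
Log2 fold change of SXL IP over GFP IP in the authors' deposited table (y axis) against gene span in bp (x axis, log scale) for the 956 listed genes, with mitochondrial mRNAs as orange circles, lincRNA genes as green triangles, nuclear protein-coding genes as grey points and pseudogenes as crosses. Solid bars are medians of the 5 span classes (2.07, 1.48, 1.54, 1.59 and 1.47), dotted bars the medians without mitochondrial genes (1.68 under 1 kb), and the dashed line marks the list rule of 2.

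By function the lists with 4 or more tested genes had medians above 0, of different size. Over all lists 114 members could be named and 113 tested; 104 rose and none fell in the authors' deposited table, beside 78.7% of all listed genes and 16.4% of all tested genes. All but a few members are named because they were listed, so the direction carries no information on a group. Cytosolic ribosomal proteins, of which 82 names were written, had no member among the named genes and could not be described.

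The named regulators of translation all rose, beside 78.7% of the 956 listed genes. The 9 that could be named, of 34 written, had a median of 1.73 in the authors' deposited table, and 4 are in the SXL list. By adjusted p these were led by brat, Imp and Fmr1, while by fold change others (2.59 and 2.26) stood between brat and Imp. Imp, an RNA-binding protein of mRNA transport granules, had 3691 and 4026 normalized counts with SXL against 914 and 747 with GFP. Fmr1, the fragile X protein and a repressor of translation, had 1590 and 1819 against 440 and 565. In both the groups stayed apart, as they did in 97.2% of the 956 listed genes.

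Named splicing regulators rose as well but by less. All 10 SR and hnRNP genes that could be named, of 30 written, rose, beside 78.7% of the 956 listed genes. The median of the 10 was 1.41 in the authors' deposited table, and sqd alone is in the SXL list. The hnRNP gene sqd, which localizes and represses mRNAs in the oocyte, had 8496 and 10474 normalized counts with SXL against 2212 and 2192 with GFP. Hrb27C had 8394 and 9550 against 2641 and 2142. The gene ps, a relative of vertebrate NOVA, had 3686 and 4307 against 1524 and 1386.

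In dosage compensation 5 of 6 tested members rose, of 9 names written, beside 78.7% of the 956 listed genes. The list median was 1.61 in the authors' deposited table. Unr, the protein that acts with SXL on msl-2 mRNA, had 2079 and 2803 normalized counts with SXL against 801 and 747 with GFP. The histone acetyltransferase gene mof had 259 and 272 against 90.3 and 58.1. In the list of sex determination and m6A genes all 5 that could be named, of 22 written, rose. Their median was 1.67 in the authors' deposited table. The m6A complex gene fl(2)d, which SXL needs for splicing its targets, had 757 and 793 against 260 and 149. The gene emc, an inhibitor of bHLH factors, had 585 and 651 against 135 and 91.3. The transcription factor gene fru had 840 and 914 against 305 and 357. For ps and fru the sign was below 0 when counts were scaled over the listed genes alone.

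Of lists with 4 or more tested genes, nuclear receptors and the ecdysone response had the highest median after the mitochondrial mRNAs, 2.16 in the authors' deposited table. All 6 that could be named, of 18 written, rose, beside 78.7% of the 956 listed genes, and 4 are in the SXL list. The receptor usp (X, positions 2038798-2042311) had 696 and 797 normalized counts with SXL against 102 and 125 with GFP. Its partner EcR had 1314 and 1351 against 271 and 399, and the early response gene Eip74EF had 455 and 523 against 113 and 58.1.

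Signalling pathways followed. In the Wnt pathway all 4 that could be named, of 16 written, rose, beside 78.7% of the 956 listed genes. Their median was 2.15 in the authors' deposited table. The TCF factor gene pan had 693 and 675 normalized counts with SXL against 79.0 and 125 with GFP, the kinase nmo 313 and 357 against 33.9 and 41.5, and the GSK3 kinase sgg 1284 and 1378 against 463 and 365. In insulin and TOR signalling all 7 that could be named, of 16 written, rose with a median of 1.92 in the authors' deposited table. ImpL2, a secreted inhibitor of insulin-like peptides, had 1401 and 1502 against 316 and 448, Pdk1 1603 and 1814 against 339 and 448, and the PI3-kinase subunit Pi3K21B 1334 and 1498 against 406 and 241.

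In EGFR and FGF signalling 7 of 9 rose, of 22 names written, with a median of 1.76 in the authors' deposited table. The 3 of lowest adjusted p are given here, while by fold change others of the list stood above them (2.71 and 2.30). The inhibitor sty (sprouty) had 10713 and 12478 normalized counts with SXL against 3194 and 3346 with GFP, the repressor aop 784 and 850 against 203 and 241, and the ubiquitin ligase Cbl 389 and 473 against 158 and 91.3. In the Hedgehog pathway 3 of 4 rose, of 14 names written, with a median of 1.72, namely Pka-C1 (2.02), rdx (1.63) and smo (1.82). In the Notch pathway 5 of 6 rose, of 19 names written, with a median of 1.28. Among them were kuz (1.66), which cuts the receptor, neur (1.57) and dx (1.88) in the authors' deposited table. Of the 956 listed genes 78.7% rose.

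In the cell cycle list all 7 members that could be named, of 29 written, rose, beside 78.7% of the 956 listed genes. Their median was 1.75 in the authors' deposited table. The Cdc25 phosphatase gene stg, which drives entry into mitosis, had 6307 and 7529 normalized counts with SXL against 1512 and 1685 with GFP. CycG had 4724 and 4941 against 1761 and 1760, and CycE 477 and 509 against 113 and 133. The sign of CycG was below 0 with scaling over the listed genes alone.

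Of lists with 4 or more tested genes, the lowest medians were those of 2 groups. Polycomb and Trithorax genes had 0.94 in the authors' deposited table. All 5 that could be named, of 28 written, were higher, among them Pc (2.59), pho (1.90) and skd (0.94). Cytoskeleton and adhesion genes had 0.90. All 5 named, of 34 written, were higher, among them mys (2.07), the beta integrin, ena (0.91) and Ten-m (0.90). Homeobox and segmentation genes had 1.54. All 4 named, of 29 written, were higher, among them ttk (1.76), lola (1.29) and ct (1.31). Of the 956 listed genes 78.7% were higher. With scaling over the listed genes alone skd, ena, Ten-m, lola and ct were below 0, and neur was below 0 with 1 of those 2 scalings.

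**Figure D5:**
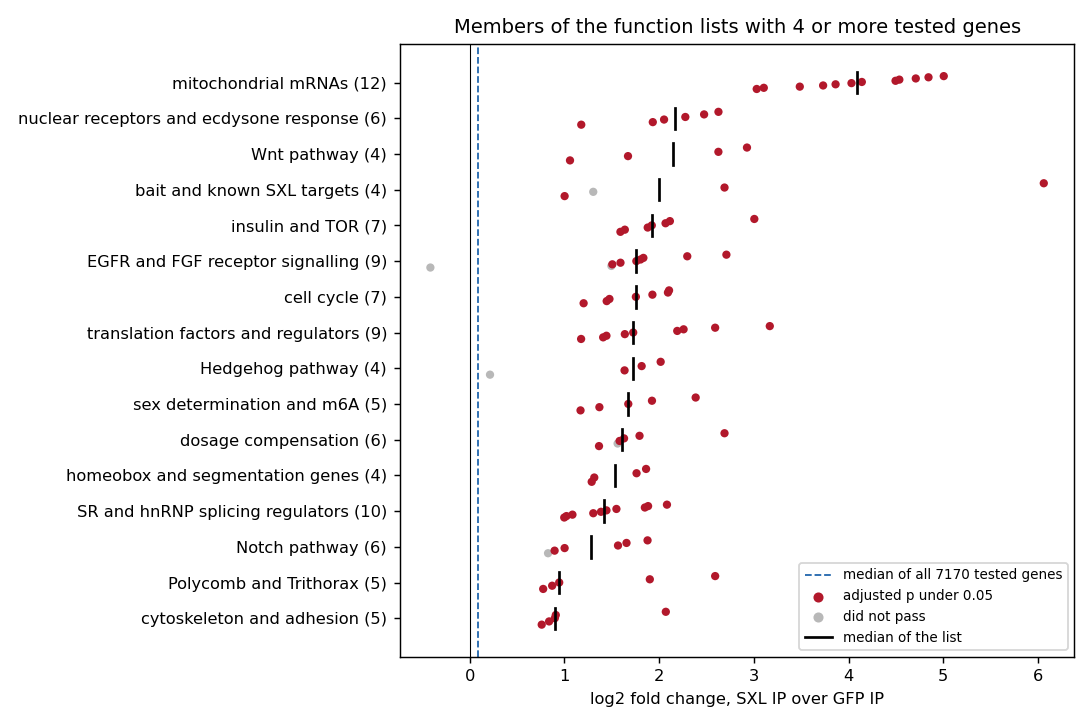
Log2 fold change of SXL IP over GFP IP in the authors' deposited table (x axis) for members of the function lists with 4 or more tested genes (rows, number tested in brackets), red where the adjusted p was under 0.05 and grey where it was not, with the list median as a black bar. List medians run from 4.09 for mitochondrial mRNAs to 0.90 for cytoskeleton and adhesion, all above the median of 0.09 of the 7170 tested genes (dashed line).

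GO terms in the deposited lists gave a second view, with terms chosen after the values were seen and no test. Negative regulation of translation had 13 listed genes, which all rose, beside 79.2% of the 852 listed genes with a GO term. Of the 13, 6 are in the SXL list, and their median was 2.08 in the authors' deposited table. The median is over all 13. Without Sxl itself 5 of 12 are in the list. The share in the list was 20.7% over all 852 listed genes with a GO term. Tracheal system development had 10 of 23 genes in the SXL list with a median of 1.97. DNA-binding transcription factor activity had 14 of 57 in the list (1.70), mRNA binding, with Sxl, 9 of 32 (1.65), nucleus 40 of 208 (1.56) and cytoplasm 34 of 154 (1.60). Integral component of membrane was among the lower ones, with 13 of 66 in the list and a median of 1.36 in the authors' deposited table. All listed genes with a GO term had 1.54 and those without one 1.61.

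Few markers of other tissues could be named: 1 of 10 neuronal, 2 of 9 muscle and, besides Sxl and Phf7, 1 of 12 germline names. The neuronal gene elav, an RNA-binding protein related to SXL, had 653 and 706 normalized counts with SXL against 181 and 83.0 with GFP. The muscle gene Tm1 had 1032 and 1062 against 361 and 448. Mef2, a muscle transcription factor, had 165 and 176 against 102 and 149, and its log2 fold change of 0.39 did not pass in the authors' deposited table. The oocyte determinant osk had 50.7 and 66.8 against 0 and 24.9, from 3 GFP reads, and its log2 fold change of 1.61 did not pass in the authors' deposited table. Which cells these reads came from was not tested.

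By chromosome the listed genes differed little apart from the mitochondrial genome. The X held 322 of them, with 72 (22.4%) in the SXL list and a median of 1.62 in the authors' deposited table. The large autosome arms had medians from 1.45 to 1.60, with 13 of 108 genes (2R) to 36 of 159 (3L) in the list. Chromosome 4 held 19 genes with a median of 1.73.

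The counts of the listed genes were also tested directly. With edgeR's quasi-likelihood test on the listed genes, 834 of 956 were higher with SXL at an adjusted p under 0.05 (87.2%) and none lower, and all 199 genes of the SXL list passed. At the same threshold and size factors DESeq2 called 811 higher and 4 lower. Leaving out 1 library at a time left 698 to 788 higher and all 199 of the SXL list. These genes were chosen on this outcome or one that shares its GFP libraries, so the counts say only how far the calls rest on single libraries.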

How the data were processed

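Precipitated RNA was depleted of rRNA, and a stranded kit for very low input gave the libraries, read from both ends, per the labels' protocols. Trimmomatic, TopHat2, featureCounts, DESeq, DESeq2 and BDGP6 are named without versions or roles, per the submitters' processing notes. The authors deposited, per the file headers, tables of 17559 genes with a mean normalized signal, a log2 fold change with its standard error, a test score and p-values, raw and adjusted, and lists of 956 genes in all with read counts, names, spans and biotypes. Normalized counts are deposited counts divided by the authors' size factors, solved by least squares from the deposited mean signal. Another 14 per-library columns were not used.

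The planned edgeR test needed counts of all genes. Counts were at hand for listed genes only, so the authors' deposited table at an adjusted p under 0.05 gives the results. edgeR 4.0.16 (quasi-likelihood, all 7 IP libraries, the authors' size factors, R 4.3.3) with Benjamini-Hochberg adjustment and DESeq2 1.42.0 were run on listed genes. Only the edgeR test was also tried on simulated data. Group levels of all genes were estimated from the mean and the fold changes of SXL and SSX. Columns are numbered 2 and 3 and titles 1 and 2, so libraries were assigned to groups only and no pairing was used. With 2 libraries against 2, an exact permutation test cannot reach 0.05. Names came from the lists or, for unlisted genes, from RefSeq (Release 6), which matched 949 of the 956 listed names. For genes with 0 GFP reads the floor was 3 reads over the group, and ratios with 1 to 3 reads have 95% exact intervals; both cover counting error only.

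Genes to name were the 15 highest and 6 lowest with a mean normalized count of 50 or more (of IDs with no name, at most 2 in each direction) and, at any mean, the genes in the SXL list alone, every target and mitochondrial mRNA, up to 5 of lowest adjusted p per function list, the highest of each biotype and span class, and the extremes of span, level and spread in the SXL list. Idgf3 and LanA were named after their values were seen. Members, lists and rules were chosen with earlier results of these data known. Python 3.11.15, pandas 2.3.3, numpy 2.4.6, scipy 1.17.1 and matplotlib 3.10.9 were used.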

Additional observations from a re-analysis of the deposited data

How the results depend on the processing

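Of the genes tested in the authors' deposited table, 997 passed an adjusted p under 0.001 and 606 had an absolute log2 change of at least 2, against 2110; 8 other settings gave 1503 to 2585. Of the listed genes edgeR called 834 higher, 698 to 788 without 1 library, but 83 with TMM and 75 with median-of-ratios factors over the listed genes. Those scalings centre genes chosen for high values, and the values of most named genes were lower; those of CG42360 and CR43701, with 0 GFP reads, are no measure of size. Under TMM and median-of-ratios the edgeR log2 value turned to -0.53 and -0.63 (N), -0.16 and -0.26 (fru), -0.10 and -0.20 (ps), -0.10 and -0.20 (CycG), -0.60 and -0.69 (skd), -0.64 and -0.74 (ena), -0.65 and -0.74 (Ten-m), -0.25 and -0.35 (lola), -0.22 and -0.32 (ct), -0.62 and -0.72 (srp), -0.20 and -0.30 (Tm1) and -1.14 and -1.24 (Mef2), and under median-of-ratios alone to -0.037 (Phf7) and -0.028 (neur). Of 82 named genes 12 and 14 thus turned, 44 under each kept their sign without passing, and 26 and 24 kept direction and call. The other settings reversed none of the 82; N, skd, ena, Ten-m, srp, osk and Phf7 lost their edgeR call without 1 library.

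The share of higher genes in the most abundant class was 58.8%, and 18.7% by estimated GFP level, a class choice added after seeing the data. The median under 1 kb was 2.07, and 3.10 with at least 10 GFP reads or, added after seeing the data, 1.68 without mitochondrial genes. The replicate block by column number gave 844 calls, and only Phf7 lost its call. The correlation of same-numbered SXL and GFP libraries, each taken from its group mean, was -0.0104 over 675 genes. With 2 libraries per group and few GFP reads, this cannot decide whether same-numbered libraries share a batch. Exon lengths were not used here, so that alternative was not run. GFP reads were 20859 and 27467 over the listed genes; in snRNA:LU, CR43701 and mt:ND6 the SXL libraries differed as well.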
